A study of Homo sapiens with 42 samples.

Results

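The genes described here are 45 human genes of the DNA replication machinery, measured in K562 cells by RNA sequencing. They were taken as the rows of both count tables whose Ensembl gene identifier maps to a listed symbol, a rule that itself uses no expression value, and each of the 45 symbols matched exactly 1 of the 58243 gene identifiers. K562 is an established erythroleukaemic line from a patient with chronic myeloid leukaemia and carries the BCR-ABL1 fusion kinase in every group, CTRL included. Cells were left untreated (CTRL) or were given 1 µM imatinib (IM), which inhibits that kinase, 5 µM JTE-607 (JTE), an inhibitor of the nuclease CPSF73 that cuts pre-mRNAs at their 3′ ends, or 110 mM KCl, an osmotic stress. Whole-cell poly(A) RNA, called mRNA below, was sequenced for CTRL, for imatinib and JTE-607 at 1, 6 and 18 hours and for KCl at 1 and 3 hours, which gave 27 libraries in 9 groups. Nuclear RNA depleted of ribosomal RNA was sequenced for CTRL, IM 1h, IM 18h, JTE 1h and KCl 1h, which gave 15 libraries in 5 groups. Every group had 3 libraries from separate experiments, and all of them come from a single cell line. Each fraction has a single CTRL group, for which the labels give no time. In comparisons with CTRL, treatment and time in culture therefore cannot be told apart.

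Chromosomal DNA is copied once per cell cycle. The origin recognition complex, with CDC6 and CDT1, loads the ring of the 6 proteins MCM2 to MCM7 onto DNA in G1 phase. The kinase CDC7 with its partner DBF4, and MCM10, then help CDC45 and the GINS complex to turn the ring into an active helicase. Polymerase alpha with primase starts each strand, polymerases epsilon and delta extend the leading and lagging strands on the sliding clamp PCNA, which the RFC complex loads, and FEN1 and LIG1 finish the Okazaki fragments while RPA covers single-stranded DNA. CAF-1 and UHRF1 act on the new chromatin. Transcription of many of these genes depends on E2F factors and their repressors of the retinoblastoma family. In RNA from a bulk culture, fewer cells in S phase and less RNA per cell cannot be told apart.

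Total counts per library lay between 16439848 and 62953314 in the mRNA fraction and between 16175394 and 25103205 in the nuclear fraction. Levels are given as CPM, the counts scaled to a common library size with TMM factors. All 9 markers of K562 cells (GATA1, TAL1 and gamma-globin genes among them) had a mean of at least 82.1 CPM in CTRL mRNA, while none of 14 markers of T cells, B cells, monocytes, fibroblasts and hepatocytes reached 10 CPM and 10 of them were under 1 CPM. The share of mitochondrial counts was 10.6% ± 0.473 (SD, n = 3) in CTRL mRNA, 12.6% ± 0.072 in IM 18h, 12.5% ± 1.11 in JTE 6h and 6.60% ± 0.702 in KCl 3h. Its part in the results below was not tested.

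The promoters are shown first because E2F motifs are the feature that this set is known for. RefSeq gives a window from 250 bases before to 50 bases after the transcription start on GRCh38.p14 for 39 of the 45 genes. Where a gene had several windows, the one with the smallest coordinate was taken. For a minus strand gene that is the most downstream start, so a window need not be that of the main start. The letters TTTCCCGC, TTTGCCGC, TTTCGCGC and TTTGGCGC were searched on both strands as E2F motifs, CCAAT as the CCAAT box and TTTGAA as the CHR element of late cell cycle genes. An E2F match was found in 16 of the 39 promoters (41.0%) and in 894 of 27305 promoters in the table (3.27%). CCAAT occurred in 21 of 39 (53.8%) against 35.6% of all promoters, and TTTGAA in 1 of 39 (2.56%) against 15.6%. The promoters compared were not limited to genes expressed in K562 cells or matched for base composition. Matches to E2F were found in both loader genes, CDC6 and CDT1, in MCM2, MCM3 and MCM6 of the 4 ring genes with a window, in 4 of the 8 polymerase genes and in 1 of the 6 ORC genes, ORC3. The windows below belong to the 4 genes called after 18 hours of imatinib (CDT1, LIG1, GINS3 and ORC5), to POLA2, which had the largest change of all members, and to MCM6, which had the most matches. They are printed 5′ to 3′ on the strand of the gene, with bases of an E2F match in capitals.
CDT1: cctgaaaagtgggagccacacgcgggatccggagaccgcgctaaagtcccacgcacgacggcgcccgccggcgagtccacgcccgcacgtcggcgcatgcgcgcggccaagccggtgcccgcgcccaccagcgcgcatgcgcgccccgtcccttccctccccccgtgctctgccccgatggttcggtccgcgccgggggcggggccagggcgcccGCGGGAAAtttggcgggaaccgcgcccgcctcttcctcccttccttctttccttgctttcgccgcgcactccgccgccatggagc
LIG1: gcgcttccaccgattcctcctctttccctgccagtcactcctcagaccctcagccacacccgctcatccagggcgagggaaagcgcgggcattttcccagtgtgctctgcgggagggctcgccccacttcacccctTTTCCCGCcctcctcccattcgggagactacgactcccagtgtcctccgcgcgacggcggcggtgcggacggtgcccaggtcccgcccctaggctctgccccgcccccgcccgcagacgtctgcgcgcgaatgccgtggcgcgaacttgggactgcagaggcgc
GINS3: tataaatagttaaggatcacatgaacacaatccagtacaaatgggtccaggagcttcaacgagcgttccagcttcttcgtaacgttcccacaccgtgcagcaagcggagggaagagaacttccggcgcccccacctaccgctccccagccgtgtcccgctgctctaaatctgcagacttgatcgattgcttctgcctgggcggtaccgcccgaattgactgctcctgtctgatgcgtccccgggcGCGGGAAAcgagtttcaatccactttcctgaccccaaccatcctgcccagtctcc
ORC5: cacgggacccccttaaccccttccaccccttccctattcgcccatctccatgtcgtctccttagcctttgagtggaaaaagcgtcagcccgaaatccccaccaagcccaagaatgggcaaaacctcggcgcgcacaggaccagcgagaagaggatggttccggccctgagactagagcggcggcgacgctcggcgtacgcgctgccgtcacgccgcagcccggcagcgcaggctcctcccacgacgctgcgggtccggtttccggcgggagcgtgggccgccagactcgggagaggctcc
POLA2: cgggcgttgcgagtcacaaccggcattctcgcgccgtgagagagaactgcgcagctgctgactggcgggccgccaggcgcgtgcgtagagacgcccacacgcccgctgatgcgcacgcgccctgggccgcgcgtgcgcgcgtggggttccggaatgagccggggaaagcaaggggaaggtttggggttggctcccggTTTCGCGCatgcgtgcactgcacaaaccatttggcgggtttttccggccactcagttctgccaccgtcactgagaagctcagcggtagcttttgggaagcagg
MCM6: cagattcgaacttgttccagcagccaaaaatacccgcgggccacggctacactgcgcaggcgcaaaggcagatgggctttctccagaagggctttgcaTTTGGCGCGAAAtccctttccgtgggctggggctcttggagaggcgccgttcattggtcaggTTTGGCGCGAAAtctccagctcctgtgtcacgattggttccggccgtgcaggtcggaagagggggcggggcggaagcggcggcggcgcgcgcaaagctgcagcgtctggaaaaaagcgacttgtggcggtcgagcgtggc

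These windows lie at chr16:88803539-88803838, plus strand (CDT1), chr19:48170295-48170594, minus strand (LIG1), chr16:58392221-58392520, plus strand (GINS3), chr7:104207964-104208263, minus strand (ORC5), chr11:65261712-65262011, plus strand (POLA2) and chr2:135876394-135876693, minus strand (MCM6). The match in the CDT1 window begins 35 bases before the start, that of LIG1 114 bases, that of GINS3 5 bases and that of POLA2 53 bases before it. MCM6 holds 4 matches in 2 overlapping pairs, and the ORC5 window holds no E2F match. A match is a description of the letters and was not tied to binding of a factor here.

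All 45 genes had counts in every library, between 288 and 41149 read pairs per gene in the mRNA fraction and between 290 and 19621 in the nuclear fraction. In CTRL mRNA the highest level per length belonged to PCNA, at 164 ± 8.55 CPM per kilobase of exon (SD, n = 3), followed by MCM7 at 151 ± 8.81. These neighbours differed by less than the sum of their SDs. CDC45 (99.8 ± 12.7), MCM3 (90.2 ± 6.64), MCM4 (79.3 ± 4.37) and MCM6 (76.6 ± 7.55 CPM per kilobase) came next. CDC45 lay below MCM7 by more than the sum of their SDs, while MCM3, MCM4 and MCM6 each differed from the gene before by less than that sum. The lowest levels were those of GINS3 (5.95 ± 0.964), ORC4 (6.59 ± 0.678), POLD3 (6.89 ± 0.755) and GINS4 (7.21 ± 0.559 CPM per kilobase). Genes whose proteins act in 1 complex thus differed in this measure, with MCM5 at 17.4 ± 1.72 CPM per kilobase against MCM7, and ORC4 against ORC1 at 51.8 ± 3.76. The length counts all annotated exons, 7338 bases for MCM5, 4386 for MCM7, 8915 for ORC4 and 3157 for ORC1. Gaps between exons above the aligner's limit of 10000 bases number 3 in GINS3 and 2 each in ORC4 and POLD3. There are 0 in GINS4, MCM5, PCNA, MCM7 and ORC1. The part of length and gaps in these ranks was not tested. In nuclear CTRL RNA MCM7 was highest at 181 ± 8.10 and ORC4 lowest at 4.39 ± 0.921 CPM per kilobase. The 45 genes together took 0.638% ± 0.0289 of the counts in CTRL mRNA, 0.678% ± 0.0307 in IM 6h, 0.654% ± 0.0234 in IM 18h and 0.608% ± 0.0396 in JTE 6h, ranges that overlapped those of CTRL.

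**Figure D1:**
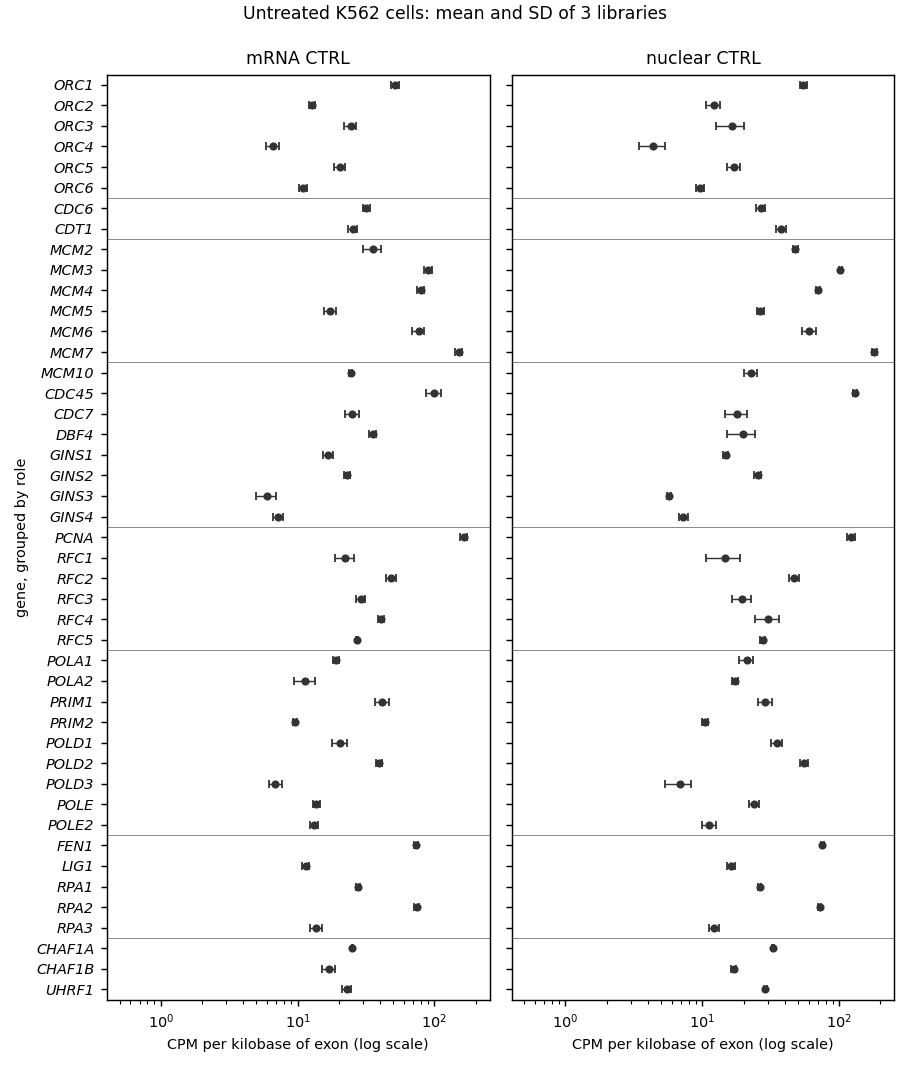
Levels of the 45 genes in untreated K562 cells, in CPM per kilobase of exon on a log scale, for mRNA on the left and nuclear RNA on the right. Points are means and bars the SD of 3 libraries, genes are ordered by role with grey lines between roles, and PCNA, MCM7 and CDC45 lie highest in both fractions.

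A gene was called changed at a Benjamini-Hochberg adjusted p under 0.05 in edgeR's quasi-likelihood test over all genes of the fraction together with a log2 fold change beyond 0.6 in size. In the 12 comparisons with CTRL, 10 of the 45 genes were called at least once and 35 never. Calls fell in 4 comparisons, namely IM 18h in both fractions, JTE 6h and JTE 18h. No member was called in both an imatinib and a JTE-607 comparison. Of all genes tested, 30.5% were called at IM 18h in mRNA, 32.6% at IM 18h in the nucleus, 13.2% at JTE 6h and 5.39% at JTE 18h. The share of all genes called at least once, or with both drugs, was not counted, so these member counts have no direct background.

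**Figure D2:**
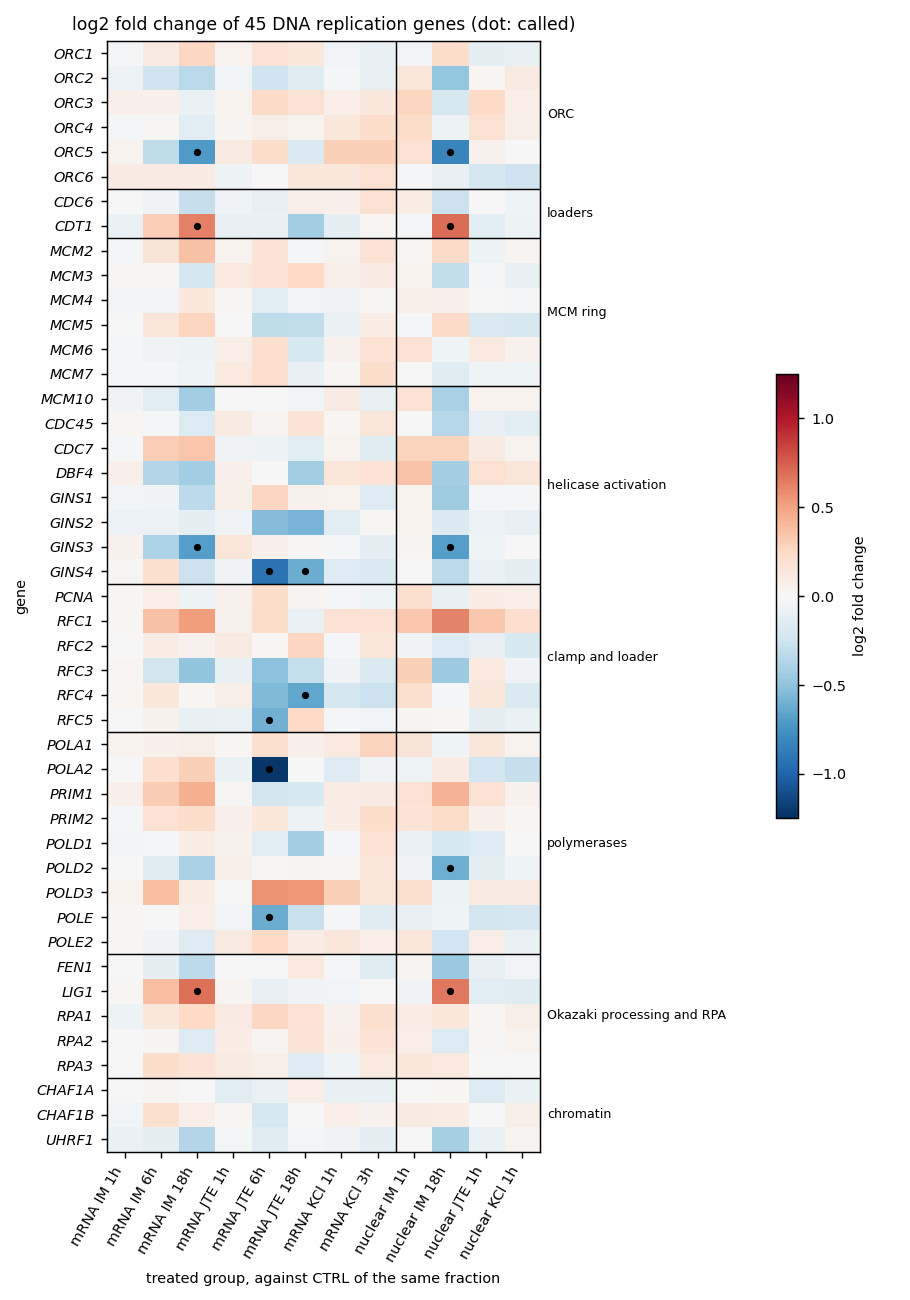
Log2 fold change against CTRL of the same fraction for the 45 genes (rows, grouped by role) in 12 treated groups (columns, the 4 nuclear ones to the right of the vertical line), where red is higher, blue is lower and a dot marks a called gene. Most cells are pale, the dots sit in the IM 18h columns and in JTE 6h and JTE 18h, and POLA2 in JTE 6h is the darkest at -1.22.

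After 18 hours of imatinib 4 of the 45 genes were called in mRNA. CDT1 and LIG1 rose, ORC5 and GINS3 fell, and the MCM ring, the clamp and its loader, the polymerases and the chromatin genes held no called member. The percentage of all 18095 tested genes called in this comparison was 30.5%, 17.2% higher and 13.2% lower (27.5% of the 8813 genes with a mean of at least 10 CPM), against 8.89% of the 45. DESeq2 called 2 higher and 2 lower as well. The median log2 fold change was -0.05 over the 45 genes and 0.038 over all genes tested. The median size of the change was 0.216 for the 45, against 0.480 for all genes tested and 0.365 for those at 10 CPM or more. The 95% interval of the log2 fold change lay wholly between -0.6 and 0.6 for 32 of the 45 genes (71.1%), for 24.1% of all genes tested and for 43.0% of those at 10 CPM or more. Such shares also depend on how narrow the intervals are. Their median half-width was 0.231 for the 45, 0.453 for all genes tested and 0.286 for those at 10 CPM or more.

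**Figure D3:**
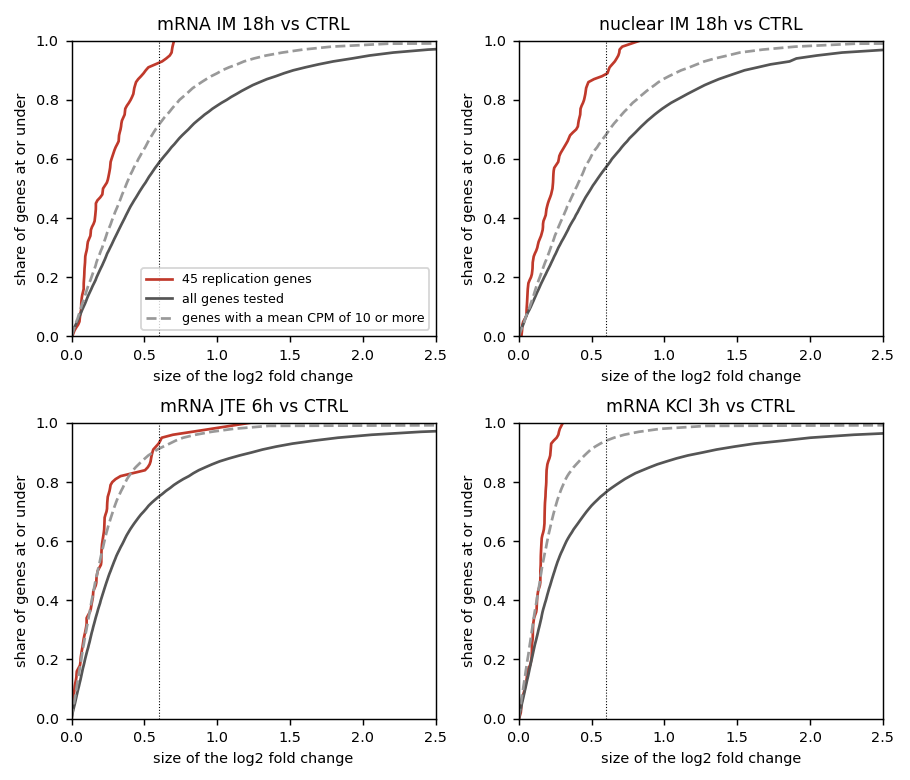
Share of genes (y axis) whose log2 fold change against CTRL is at or under the size on the x axis, for the 45 replication genes in red, all genes tested in dark grey and genes with a mean of at least 10 CPM as a dashed line. The dotted line marks the threshold of 0.6; the red curve lies to the left of both others through most of IM 18h in mRNA and nuclear RNA, and close to the dashed line in JTE 6h.

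CDT1 (ENSG00000167513, chr16:88803213-88809258, plus strand on GRCh38, by GENCODE) carries the MCM ring to the origin and is degraded once S phase begins. Its mRNA was at 81.3, 92.3 and 80.4 CPM in the 3 CTRL libraries, at 85.9, 80.0 and 73.7 in IM 1h, at 92.8, 110 and 111 in IM 6h and at 154, 124 and 115 in IM 18h. The IM 6h and IM 18h libraries lay above every CTRL library and did not overlap with each other. Its log2 fold change was 0.63 ± 0.134 (SE, n = 3 libraries per group) at 18 hours (edgeR, adjusted p = 0.000579), a 1.55-fold rise, and 0.30 ± 0.134 at 6 hours (adjusted p = 0.127). In the nucleus CDT1 was at 117, 139 and 122 CPM in CTRL and at 217, 196 and 199 in IM 18h, with no overlap and a log2 fold change of 0.69 ± 0.107 (edgeR, adjusted p = 2.36e-05). The mRNA estimate is close to the threshold: without CTRL replicate 1, CTRL replicate 3 or IM 18h replicate 1 it fell below 0.6, with 0.49 as the lowest value, and the call was lost while the adjusted p stayed at or under 0.00899. CDC6, the other loader, was at 173, 155 and 162 CPM in CTRL, 151, 182 and 158 in IM 1h, 158, 173 and 145 in IM 6h and 142, 132 and 128 in IM 18h. Its IM 18h libraries lay below CTRL, with a log2 fold change of -0.28 ± 0.0952 (adjusted p = 0.0186) that is within the threshold.

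LIG1 (ENSG00000105486, chr19:48115445-48170603, minus strand) encodes the ligase that joins Okazaki fragments. Its mRNA was at 72.8, 73.3 and 80.0 CPM in CTRL, at 75.4, 71.8 and 80.4 in IM 1h, at 88.7, 91.3 and 114 in IM 6h and at 134, 122 and 110 in IM 18h. Both later times lay above all CTRL libraries, and they overlapped with each other. Its log2 fold change was 0.69 ± 0.0967 at 18 hours (edgeR, adjusted p = 5.03e-06), a 1.62-fold rise, and 0.38 ± 0.0965 at 6 hours (adjusted p = 0.00897), within the threshold. Nuclear LIG1 was at 98.5, 111 and 110 CPM in CTRL and at 185, 148 and 173 in IM 18h, with a log2 fold change of 0.66 ± 0.104 (edgeR, adjusted p = 3.09e-05). The nuclear groups did not overlap; without IM 18h replicate 1 the nuclear value was 0.59, just under the threshold. Of the other genes of this role, FEN1, which trims the flap ahead of the ligase, had a log2 fold change of -0.32 (adjusted p = 0.000973), RPA1 0.25 (adjusted p = 0.00603) and RPA2 -0.16 (adjusted p = 0.149), each within the threshold. RPA2, the least changed of these, was at 158, 146 and 146 CPM in CTRL, 139, 162 and 149 in IM 1h, 154, 161 and 145 in IM 6h and 142, 132 and 128 in IM 18h, and its IM 18h libraries lay just below CTRL.

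ORC5 (ENSG00000164815, chr7:104126341-104208047, minus strand) is 1 of the 6 subunits of the origin recognition complex. Its mRNA was at 77.2, 68.6 and 82.6 CPM in CTRL, at 71.3, 81.0 and 83.0 in IM 1h, at 67.3, 60.3 and 55.3 in IM 6h and at 39.7, 51.6 and 48.9 in IM 18h. Every IM 6h and IM 18h library lay below every CTRL library, and the later groups did not overlap. The log2 fold change was -0.70 ± 0.107 at 18 hours (edgeR, adjusted p = 1.47e-05), or 0.614 times CTRL, and -0.32 ± 0.106 at 6 hours (adjusted p = 0.0415). In the nucleus ORC5 fell to 37.7, 35.9 and 33.5 CPM from 71.7, 59.3 and 59.6, a log2 fold change of -0.83 ± 0.133 (edgeR, adjusted p = 3.72e-05). The other 5 subunits did not pass in mRNA. Their log2 fold changes were 0.26 for ORC1, -0.34 for ORC2 (adjusted p = 0.0082), -0.083 for ORC3, -0.13 for ORC4 and 0.11 for ORC6. ORC3, the least changed subunit, was at 92.0, 98.2 and 79.9 CPM in CTRL, 103, 96.0 and 83.6 in IM 1h, 100, 94.4 and 86.9 in IM 6h and 85.0, 88.9 and 80.9 in IM 18h. Its CTRL and IM 18h libraries overlapped.

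GINS3 (ENSG00000181938, chr16:58295080-58406144, plus strand) is a subunit of the GINS complex of the active helicase. Its mRNA was at 30.9, 25.2 and 35.0 CPM in CTRL, at 25.5, 33.1 and 35.6 in IM 1h, at 21.3, 25.1 and 22.9 in IM 6h and at 17.7, 20.8 and 18.1 in IM 18h. The IM 18h libraries lay below every library of CTRL, IM 1h and IM 6h. The log2 fold change at 18 hours was -0.69 ± 0.152 (edgeR, adjusted p = 0.000853), or 0.622 times CTRL, and the nuclear libraries fell from 29.6, 30.2 and 28.1 to 19.2, 18.4 and 16.9 CPM (-0.69 ± 0.106, edgeR, adjusted p = 2.39e-05). GINS3 shares 10.9% of its exon bases with a gene on the opposite strand, and the counting was not stated to use strand. The other GINS genes did not pass, at -0.33 for GINS1 (adjusted p = 0.0212), -0.11 for GINS2 and -0.26 for GINS4. GINS2 was at 78.7, 72.4 and 73.8 CPM in CTRL, 70.4, 83.3 and 60.6 in IM 1h, 72.4, 74.4 and 66.3 in IM 6h and 71.9, 69.8 and 66.4 in IM 18h, with the IM 18h libraries just below CTRL. MCM10 at -0.43 (adjusted p = 0.000357) and DBF4 at -0.42 (adjusted p = 0.00248) had lower estimates within the threshold, CDC45 was at -0.17, and CDC7, the partner kinase of DBF4, was at 0.34.

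**Figure D4:**
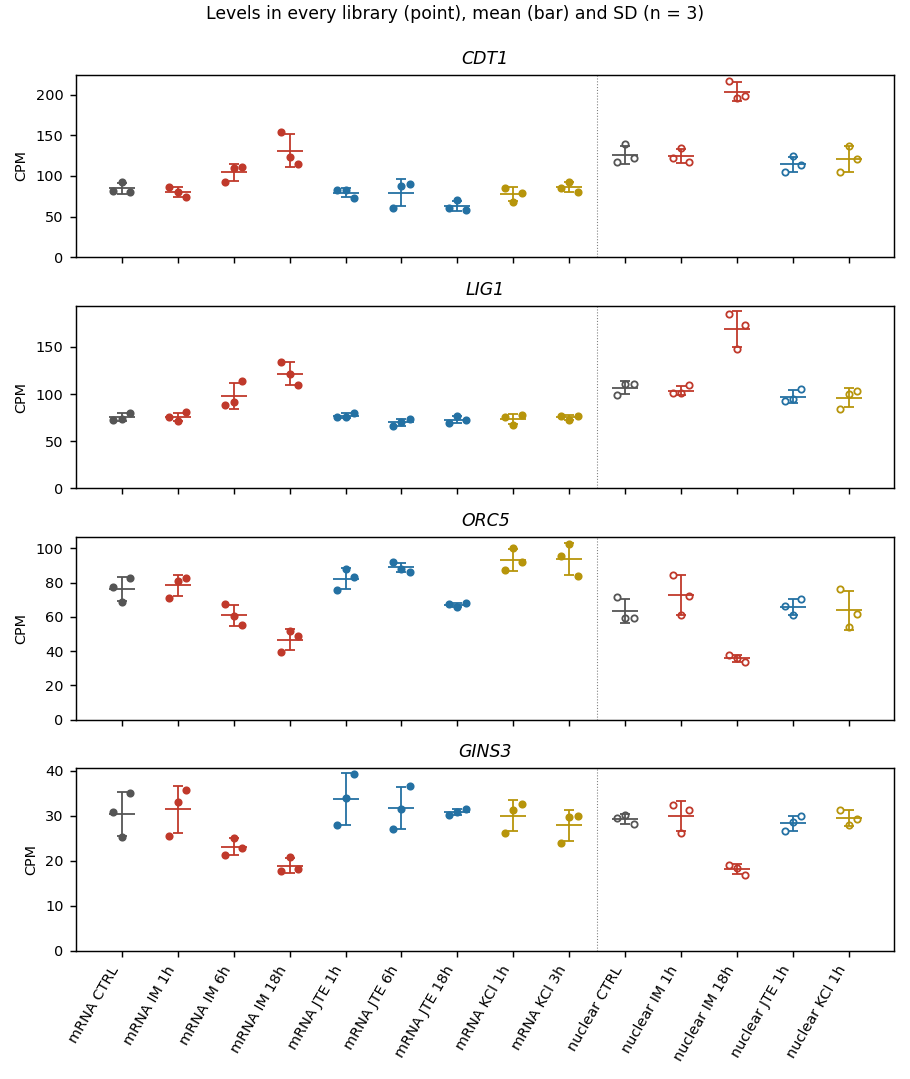
CPM of CDT1, LIG1, ORC5 and GINS3 (4 panels, each y axis from 0) in every library of the 14 groups on the x axis, filled points for mRNA and open points for nuclear RNA, with the mean as a horizontal bar and the SD of 3 libraries as an error bar. CDT1 and LIG1 are highest in IM 18h of each fraction and ORC5 and GINS3 lowest there.

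The helicase activation genes held 4 of the 11 lower genes that passed the adjusted p alone at IM 18h, with a median log2 fold change of -0.30 over the 8. Of the 18095 genes tested 3803 were lower at that adjusted p. The remaining roles held no called gene in mRNA after 18 hours of imatinib. In the MCM ring the changes ran from -0.21 to 0.36. MCM2 was at 187, 189 and 145 CPM in CTRL, 189, 179 and 145 in IM 1h, 184, 205 and 192 in IM 6h and 232, 227 and 212 in IM 18h, and had the largest change at 0.36 ± 0.119 (adjusted p = 0.0157). MCM7 was at 692, 672 and 617 CPM in CTRL, 659, 709 and 591 in IM 1h, 657, 698 and 600 in IM 6h and 669, 651 and 589 in IM 18h, and had the smallest at -0.053 ± 0.0853 (adjusted p = 0.643). CTRL and IM 18h did not overlap for MCM2 and did for MCM7. Among the clamp and its loader RFC1, the large subunit, was at 143, 176 and 130 CPM in CTRL, 165, 149 and 141 in IM 1h, 204, 176 and 199 in IM 6h and 247, 197 and 202 in IM 18h. CTRL and IM 18h did not overlap, and the log2 fold change was 0.52 ± 0.128 (adjusted p = 0.00199), which is within the threshold. Its log2 fold change in the nucleus was 0.62 ± 0.259 (edgeR, adjusted p = 0.0677), where 129, 91.5 and 75.8 CPM in CTRL and 206, 139 and 110 in IM 18h overlapped between the groups. Each numbered nuclear IM 18h library lay above the CTRL library of the same number, and with the replicate number as a block the nuclear value was 0.61 ± 0.0806 (edgeR, adjusted p = 6.15e-08), which passes. RFC4, the least changed of this role, was at 118, 130 and 119 CPM in CTRL, 123, 132 and 119 in IM 1h, 141, 141 and 122 in IM 6h and 131, 128 and 114 in IM 18h, with overlapping groups (0.022 ± 0.112).

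Among the polymerase genes PRIM1, the catalytic primase subunit, was at 98.6, 114 and 91.5 CPM in CTRL, 112, 111 and 94.0 in IM 1h, 127, 122 and 129 in IM 6h and 149, 139 and 126 in IM 18h. CTRL and IM 18h did not overlap, with a log2 fold change of 0.45 ± 0.105 (adjusted p = 0.00149). POLA1, the catalytic subunit of polymerase alpha, was the least changed (0.072 ± 0.0842). It was at 126, 123 and 115 CPM in CTRL, 130, 121 and 124 in IM 1h, 134, 123 and 123 in IM 6h and 118, 130 and 135 in IM 18h, and CTRL and IM 18h overlapped. POLD2, an accessory subunit of polymerase delta, was lower in IM 18h mRNA within the threshold, at -0.40 ± 0.0828 (adjusted p = 0.000419), and was called in the nucleus at -0.61 ± 0.110 (edgeR, adjusted p = 0.000146). Its nuclear libraries were at 188, 213 and 210 CPM in CTRL and at 113, 142 and 146 in IM 18h, without overlap, and the call was lost in 7 of 14 alternative settings. Of the chromatin genes UHRF1, which brings DNA methylation to new strands, was at 126, 116 and 110 CPM in CTRL, 110, 118 and 105 in IM 1h, 104, 123 and 97.9 in IM 6h and 79.1, 93.7 and 100 in IM 18h. Its IM 18h libraries lay below CTRL, with a log2 fold change within the threshold (-0.37 ± 0.139, adjusted p = 0.0344). CHAF1A, the large CAF-1 subunit, was at 109, 107 and 109 CPM in CTRL, 101, 114 and 108 in IM 1h, 99.7, 123 and 111 in IM 6h and 109, 116 and 99.0 in IM 18h, with overlapping groups (-0.0044 ± 0.0966).

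Without the fold change threshold 17 of the 45 genes passed at IM 18h in mRNA, 6 higher and 11 lower, where 43.8% of all genes passed. In the nucleus 2 genes were higher and 3 lower where 17.2% and 15.4% of the 21929 genes tested were (32.6% together), and DESeq2 called 3 higher and 2 lower. Without the fold change threshold 18 passed, against 45.6% of all genes, and the median log2 fold change was -0.09. CDT1, LIG1, ORC5 and GINS3 were called in both fractions. Tested as an interaction, the nuclear response differed from that in mRNA for 0 of the 45 genes (edgeR interaction test, 0 at an unadjusted p under 0.05, 0.0901% of all genes; DESeq2 was not run on it). For CDT1 that difference was 0.12 with a 95% interval from -0.23 to 0.47, for LIG1 0.025 (-0.30 to 0.35), for ORC5 -0.073 (-0.44 to 0.30) and for GINS3 0.050 (-0.34 to 0.44).

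At the earlier imatinib times no gene of the set was called. At IM 1h 0 of 45 were called in mRNA by edgeR and by DESeq2, where 0.0166% of all genes were called. The unadjusted edgeR p was under 0.05 for 0 members and for 206 of the 18095 genes tested. Log2 fold changes of the members ran from -0.084 to 0.10. All 45 genes overlapped CTRL, a count that was not made over all genes and so has no background. The nuclear IM 1h group also had 0 calls (edgeR, 0 unadjusted and 0 by DESeq2, with 0.0456% of all genes called). At IM 6h 0 of 45 were called in mRNA (edgeR, 9 at an unadjusted p under 0.05 and 0 by DESeq2), where 9.94% of all genes were. LIG1 (0.38) and PRIM1 (0.31) on the higher side and DBF4 (-0.36) and ORC5 (-0.32) on the lower side passed the adjusted p alone, as did 16% of all genes. Compared directly, 0 of 45 were called between IM 6h and IM 1h (edgeR, 8.2% of all genes) or between IM 18h and IM 6h (edgeR, 4.41% of all genes), and DESeq2 called 0 in each. At an unadjusted p under 0.05 these were 9 and 11 members, against 4960 and 4380 of the 18095 genes tested. For IM 6h against CTRL 5379 of all genes passed that unadjusted p.

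After 6 hours of JTE-607 4 genes fell in mRNA, POLA2, GINS4, POLE and RFC5, and 0 rose. Of all genes tested 13.2% were called, 6.47% lower, and of those at 10 CPM or more 7.86%, against 8.89% of the 45, so the share of called members is near the background. DESeq2 also called 4 lower and 0 higher. The median log2 fold change of the 45 was 0.0015 and that of all genes 0.026, and 37 of the 45 intervals (82.2%) lay within the threshold, against 37.4% of all genes and 67.0% of those at 10 CPM or more. The median half-widths of these intervals were 0.230, 0.455 and 0.285, in that order.

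POLA2 (ENSG00000014138, chr11:65261762-65305589, plus strand), the accessory subunit of polymerase alpha, had the largest change of any member. It was at 77.3, 64.8 and 53.7 CPM in CTRL, at 60.6, 72.9 and 51.3 in JTE 1h, at 26.3, 39.6 and 18.3 in JTE 6h and at 59.9, 73.2 and 62.3 in JTE 18h. The JTE 6h libraries lay below every other mRNA library, and those of JTE 1h and JTE 18h overlapped CTRL. The estimated log2 fold change was -1.22 ± 0.205 at 6 hours (edgeR, adjusted p = 0.000125), or 0.429 times CTRL, and -0.0031 ± 0.200 at 18 hours. JTE 18h was 2.32 times JTE 6h (1.22 ± 0.205 on the log2 scale, edgeR, adjusted p = 0.000187). The other members of the polymerase alpha and primase complex were at 0.20 (POLA1), -0.23 (PRIM1) and 0.13 (PRIM2) in JTE 6h, none of them called.

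RFC5 (ENSG00000111445, chr12:118013588-118033130, plus strand), a small subunit of the clamp loader, followed the same course with a smaller change. It was at 86.6, 89.1 and 88.2 CPM in CTRL, at 63.6, 65.1 and 45.3 in JTE 6h and at 106, 108 and 101 in JTE 18h. The 3 groups did not overlap. The log2 fold change against CTRL was -0.60 ± 0.119 at 6 hours (edgeR, adjusted p = 0.000699) and 0.25 ± 0.118 at 18 hours (adjusted p = 0.201), and JTE 18h was above JTE 6h by 0.85 ± 0.120 (edgeR, adjusted p = 2.31e-05). Without JTE 6h replicate 3 the value at 6 hours was -0.45 and the call was lost. RFC5 shares 10.6% of its exon bases with genes on the opposite strand.

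GINS4, a GINS subunit, was at 40.7, 36.0 and 41.8 CPM in CTRL, at 35.0, 37.5 and 42.8 in JTE 1h, at 17.8, 25.1 and 19.5 in JTE 6h and at 25.1, 28.7 and 23.1 in JTE 18h. Both later groups lay below CTRL and overlapped each other. The log2 fold change was -0.92 ± 0.132 at 6 hours (edgeR, adjusted p = 1.76e-05) and -0.62 ± 0.131 at 18 hours (edgeR, adjusted p = 0.00348), and it was the only member called at both times. The call at 18 hours was lost without CTRL replicate 3 and without JTE 18h replicate 3, with -0.56 as the value closest to 0. GINS4 shares 23.6% of its exon bases with 2 genes on the opposite strand. GINS2 was below CTRL at both times within the threshold, at -0.54 (adjusted p = 0.00763) and -0.58 (adjusted p = 0.00968).

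POLE (ENSG00000177084, chr12:132623753-132687365, minus strand), the catalytic subunit of polymerase epsilon, was at 234, 212 and 237 CPM in CTRL, at 132, 171 and 141 in JTE 6h and at 174, 199 and 189 in JTE 18h. Both groups lay below CTRL. Its log2 fold change was -0.62 ± 0.0925 at 6 hours (edgeR, adjusted p = 2.83e-05) and -0.28 ± 0.0922 at 18 hours (adjusted p = 0.0551), and the call at 6 hours was lost without JTE 6h replicate 1 or replicate 3. RFC4 (ENSG00000163918, chr3:186789880-186807058, minus strand), another small clamp loader subunit, was at 118, 130 and 119 CPM in CTRL, at 93.2, 88.2 and 69.8 in JTE 6h and at 76.0, 82.1 and 76.4 in JTE 18h. It lay below CTRL at both times, with -0.55 ± 0.112 at 6 hours, just within the threshold (adjusted p = 0.00097), and -0.65 ± 0.113 at 18 hours, past it (edgeR, adjusted p = 0.000589). POLD3, an accessory subunit of polymerase delta, had the highest estimates of the set at 0.56 and 0.54, both within the threshold (adjusted p = 0.00429 and 0.0121).

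**Figure D5:**
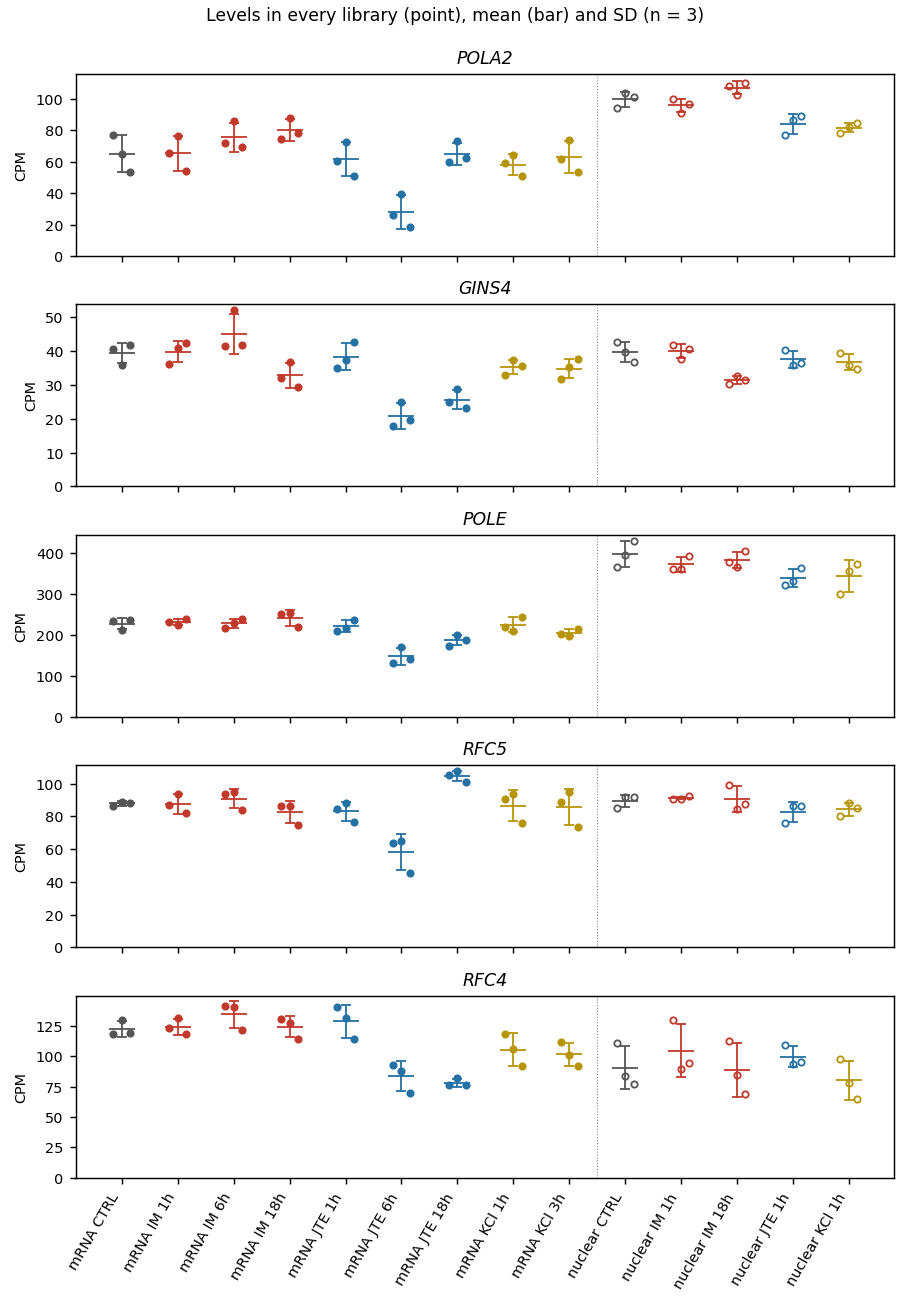
CPM of POLA2, GINS4, POLE, RFC5 and RFC4 (5 panels, each y axis from 0) in every library of the 14 groups on the x axis, filled points for mRNA and open points for nuclear RNA, with the mean as a horizontal bar and the SD of 3 libraries as an error bar. Among the mRNA groups POLA2, GINS4, POLE and RFC5 have their lowest means in JTE 6h, POLA2 and RFC5 are back at or above CTRL in JTE 18h, and RFC4 and GINS4 are not.

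Of all genes 18.1% passed the adjusted p alone at JTE 6h and 9.19% at JTE 18h, against 9 and 7 of the 45. At JTE 18h RFC4 and GINS4 were the 2 genes called, both lower, where 5.39% of all genes (2.09% lower) and 3.93% of those at 10 CPM or more were called; DESeq2 gave the same numbers, 0 higher and 2 lower. Between JTE 18h and JTE 6h only POLA2 and RFC5 were called, both higher, where 13.4% of all genes were called and 7.76% were higher. At JTE 1h 0 of 45 were called in mRNA by edgeR and by DESeq2, where 0.851% of all genes were called. The unadjusted edgeR p was under 0.05 for 0 members and for 1341 of the 18095 genes tested. The log2 fold changes of the members ran from -0.15 to 0.15. In nuclear RNA at JTE 1h 0 of 45 were called (edgeR, 4 unadjusted and 0 by DESeq2, with 8.52% of all genes called). The unadjusted p was under 0.05 there for 4776 of the 21929 genes tested. Nuclear POLA2 was at 94.5, 104 and 101 CPM in CTRL and 77.2, 86.7 and 89.2 in JTE 1h, without overlap, at a log2 fold change of -0.24 ± 0.0885 that did not pass (adjusted p = 0.0935). The nuclear JTE-607 libraries are all of 1 hour, so the later changes have no nuclear counterpart.

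With KCl every gene of the set stayed within the threshold. In mRNA 0 of 45 were called at KCl 1h (edgeR, 2 at an unadjusted p under 0.05 and 0 by DESeq2, with 5.45% of all genes called) and 0 at KCl 3h (edgeR, 7 unadjusted and 0 by DESeq2, with 11.9% of all genes called). At KCl 3h the 95% interval lay within the threshold for all 45 genes, for 39.6% of all genes tested and for 71.9% of those at 10 CPM or more. The median half-widths of these intervals were 0.231, 0.453 and 0.284, in that order. The changes ran from -0.27 for RFC4 to 0.30 for ORC5, with a median of 0.088 over the set. POLA1 passed the adjusted p alone at 0.28 (0.0232), with 126, 123 and 115 CPM in CTRL and 151, 150 and 141 in KCl 3h, which do not overlap, where 15.8% of all genes passed it. Between KCl 3h and KCl 1h 0 were called (edgeR, 2 unadjusted and 0 by DESeq2, with 3.29% of all genes called). In nuclear RNA at KCl 1h 0 of 45 were called (edgeR, 4 unadjusted and 0 by DESeq2), where 23.8% of all genes were, and POLA2 (-0.29) and ORC6 (-0.26) passed the adjusted p alone, as did 27.2% of all genes. The nuclear response was called different from that in mRNA for 0 of 45 genes at IM 1h, JTE 1h and KCl 1h. Of all genes 0%, 0.0605% and 0.668% were called. In these edgeR interaction tests 0, 0 and 1 members had an unadjusted p under 0.05. That p was under 0.05 for 395 of 19420, 1175 of 19831 and 2035 of 21095 genes tested. Over the members the KCl 1h difference ran from -0.49 to 0.035, with a median of -0.12 (-0.074 over all genes). The 95% interval lay within the threshold for 37, 39 and 32 of the 45, in that order. The unadjusted p was under 0.05 for 2711 of the 18095 genes in mRNA at KCl 1h and 4816 at KCl 3h. It was for 2696 between those times and for 7628 of the 21929 genes in nuclear KCl 1h.

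The treatments were also compared with each other at matched times. All comparisons with CTRL in a fraction share the 3 CTRL libraries, so their values stand side by side here, and IM 6h against JTE 6h and IM 18h against JTE 18h were tested directly. The drugs differ in dose and target. At 6 hours 5 of 45 genes were higher in imatinib and 0 lower, where 23.8% of all genes were called and 13.6% were higher: POLA2 by 1.43 ± 0.205 on the log2 scale (adjusted p = 1.06e-05), GINS4 by 1.12, RFC4 by 0.68, RFC5 by 0.65 and POLE by 0.63. At 18 hours 5 were higher and 1 lower, where 30.3% of all genes were called, 16.7% higher and 13.6% lower. CDT1 was higher by 1.05 ± 0.136 (edgeR, adjusted p = 1.81e-06), with 154, 124 and 115 CPM in IM 18h and 60.8, 70.3 and 58.3 in JTE 18h, which did not overlap. LIG1 (0.74), RFC4 (0.67), PRIM1 (0.64) and RFC1 (0.60) were higher as well, and GINS3 was lower at -0.70. The RFC1 call was lost in 8 of 14 alternative settings and the PRIM1 call in 4.

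Genes with and without an E2F match in the promoter window had overlapping changes at IM 18h. The 16 genes with a match ranged from -0.69 to 0.69 with a median log2 fold change of -0.097, 2 of them called higher and 1 lower. The 23 without one ranged from -0.70 to 0.52 with a median of -0.0044, 0 called higher and 1 lower. Of all genes tested 17.2% were called higher and 13.2% lower. Among the called members, CDT1 and LIG1 (higher) and GINS3 (lower) hold a match, and ORC5 (lower) holds none. Whether a match bears on the change was not tested.

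A list of 30 other replication factors, among them genes for origin firing, fork protection, RNase H2, histone chaperones and topoisomerases, gave 2 higher and 3 lower at IM 18h in mRNA, where 17.2% of all genes were higher and 13.2% lower, with a median log2 fold change of 0.027. ATAD5, which unloads the clamp, was higher by 0.87 and TIMELESS, a fork protection protein, by 0.79, while MCMBP, a binding partner of the MCM proteins, was lower at -0.98, POLE3 at -0.62 and TIPIN, the partner of TIMELESS, also at -0.62. At JTE 18h RNASEH2A, a subunit of RNase H2, was lower at -0.75 and CHTF18, of an alternative clamp loader, at -0.83, where 2.09% of all genes were lower. Of 13 genes for E2F factors, their DP partners and the retinoblastoma family, RBL2 was higher (0.84) and E2F5 (-0.61) and E2F6 (-0.74) lower at IM 18h in mRNA, where 30.5% of all genes were called, and E2F4 was lower at JTE 6h (-0.68), where 13.2% were called. The same 3 genes of this list were called in the same directions in nuclear RNA at IM 18h, where 32.6% of all genes were called.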

How the data were processed

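RNA of K562 cells was sequenced in 42 libraries of 14 groups, and the authors deposited 1 table of raw read-pair counts per gene for mRNA and 1 for nuclear RNA. They trimmed and deduplicated reads, aligned them with STAR to GRCh38.p14 keeping unique mappers and introns of up to 10000 bases, and counted pairs over exons with featureCounts, with no strand option stated and the annotation release not given in the sources used here. Of the 45 genes 14 have a gap between exons above that intron limit, 19 share exon bases with another gene and 3 share over 10%.

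Gene identifiers were named with GENCODE, which matched 57532 of 58243. Counts were tested per fraction in 1 fit over all groups with edgeR 4.0.16 (R 4.3.3, limma 3.58.1; filterByExpr, TMM, robust quasi-likelihood test), with Benjamini-Hochberg adjustment over all genes and a gene was called where the adjusted p was under 0.05 with a change of more than 0.6 on the log2 scale. The difference between nuclear and mRNA responses was an interaction over 12 libraries. Alternatives were DESeq2 1.42.0, other scalings and low-count filters, no fold threshold, only the groups compared, a replicate block and leaving out each replicate. The script was tested on simulated counts. Library totals limit the precision of each count, and tests measure the spread between experiments on a single line.

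The 45 genes and the lists were chosen with earlier results of these data known. The rule for values in the text was the most and least changed gene of each of 8 roles at IM 18h, up to 2 called genes in each direction for other comparisons, and any gene called against its comparison's main direction; POLE, RFC5, RFC4 and others outside it were named after their values were seen. Same-numbered nuclear libraries deviated together (r from 0.24 to 0.89 with CTRL). The nuclear values are nevertheless from the fit without pairing unless a replicate block is named, and the block was run as an alternative. The mRNA CTRL replicates 1 and 2 carry the numbers of the deposited columns, which the study's list of read totals gives in the opposite order. Apart from the blocked nuclear RFC1 value, the fits above use no replicate number.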

Additional observations from a re-analysis of the deposited data

Results flagged for a closer look

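JTE 18h differed from JTE 6h for 2 of the 45 genes by a direct test of the difference between the times. POLA2 was higher at 18 hours by 1.22 on the log2 scale and RFC5 by 0.85, in 3 of 3 libraries of each gene, and both calls held under all 14 alternative settings run. The part of mitochondrial share, which was 12.5% ± 1.11 (SD, n = 3) in JTE 6h and 10.5% ± 1.15 in JTE 18h, was not tested.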

How the results depend on the processing

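Without the fold change threshold the numbers of genes higher and lower were 2 and 2 for IM 6h, 6 and 11 for IM 18h, 2 and 7 for JTE 6h, 1 and 6 for JTE 18h, 6 and 12 for nuclear IM 18h, 2 and 2 for IM 6h against 1h, 1 and 3 for IM 18h against 6h, 11 and 5 for IM 6h against JTE 6h and 13 and 13 for IM 18h against JTE 18h, with 1 higher for KCl 3h, 2 lower for nuclear KCl 1h and 4 lower for JTE 18h against 6h. Upper-quartile scaling moved the median of all genes from 0.038 to 0.109 at IM 18h and from 0 to 0.121 in the nucleus, the members' medians to 0.017 and 0.033, and left 1 lower in nuclear IM 18h, 1 higher and 2 lower at JTE 6h and 1 lower at JTE 18h. With no low-count filter 1 was higher at IM 18h (median -0.14), and 2 in IM 18h against JTE 18h (median -0.062). At a mean CPM of 10 or more 1 was lower at IM 18h (median 0.042) and in nuclear IM 18h (0.036), and 0 at JTE 18h (0.043). With only the groups compared 1 was higher at IM 18h and 3 in IM 18h against JTE 18h, and the nuclear KCl 1h median was -0.058. By name, CDT1 lost its mRNA call at IM 18h with no low-count filter and with only the groups compared, GINS3 lost its calls in both fractions, RFC5 its call at JTE 6h and RFC4 and GINS4 theirs at JTE 18h at a mean CPM of 10 or more, where RFC1 was called at IM 18h, and POLE and RFC5 at JTE 6h, GINS4 at JTE 18h and nuclear GINS3 lost theirs under upper-quartile scaling. In IM 18h against JTE 18h PRIM1 and RFC1 lost their calls with no low-count filter and with only the groups compared, RFC4 with no low-count filter, and RFC1 also with RLE scaling and DESeq2. The cause was not tested.

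Leaving out 1 replicate, with the spread pooled over groups, gave 1 to 3 higher at IM 18h (median -0.12 to -0.0055), 0 to 1 higher and 2 to 6 lower at JTE 6h, 0 to 1 higher and 1 to 3 lower at JTE 18h (median -0.072 to 0.029), 1 to 3 higher in nuclear IM 18h (median -0.19 to -0.00060), 2 to 7 higher and 0 to 1 lower for IM 6h against JTE 6h, and 3 to 6 higher and 1 to 2 lower for IM 18h against JTE 18h (median -0.053 to 0.017). Medians ran from -0.074 to 0.017 for nuclear KCl 1h and from -0.23 to -0.093 for its difference from mRNA. With the replicate number as a block nuclear IM 18h had 3 higher and 3 lower, RFC1 being added, and IM 18h against JTE 18h 4 and 1; no other call against CTRL changed. In mRNA the deviations from group means correlated between treated and same-numbered CTRL libraries from 0.056 to 0.88 for replicate 3 and from -0.37 to 0.079 for replicates 1 and 2. The deposited columns and the study's own list of read totals number CTRL mRNA replicates 1 and 2 in opposite ways, so the blocked mRNA values hold for the deposited numbering and do not show whether the experiments pair. Counting error weighs most on the smallest counts, 288 read pairs for GINS4 in mRNA and 290 for GINS3 in nuclear RNA. Their estimates were not the least precise, as nuclear RFC1 at IM 18h had an SE of 0.259.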
